A study of Mus musculus with 20 samples.

Results

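The heat shock proteins, the unfolded protein response of the endoplasmic reticulum (ER) and the integrated stress response (ISR) were examined in the left ventricle of mice given doxorubicin (DOXO), an anthracycline that damages the heart, with or without folic acid (FA). The list held 46 genes in 3 arms, namely 20 heat shock proteins and their regulators, 15 genes of the ER and 11 genes of the ISR. A gene was taken as measured where a transcript cluster (the summary of a gene's probes over its exons) carried that gene symbol and no other, and the cluster with the highest mean signal stood for the gene. This rule found 43 of 46 genes among 34760 clusters, 21640 of which carry 1 symbol. The heat shock arm lost Hsf1, Hspa1b and Hsp90ab1 and kept 17 of 20, whereas all 15 ER genes and all 11 ISR genes were found. The mice were male C57BL/6 aged 2 months. In the sham group, 4 mice received saline and a placebo diet. In the FA-sham group, 4 mice received saline and FA at 10 mg per day. In the DOXO group, 6 mice received 1 intraperitoneal dose of 20 mg/kg and the placebo diet, and in the FA-DOXO group, 6 mice received the same dose and FA. The diets began 7 days before the injection and lasted until tissue was taken at day 10, so nothing is known here of the early hours, when stress genes often move. In whole ventricle, fewer cells of a type and less RNA per cell cannot be told apart.

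Cells answer damaged proteins with separate programmes. In the cytosol, heat shock factor 1 drives chaperones of the Hsp70, Hsp90, Hsp60 and small heat shock protein families, and several small members (Hspb1, Hspb2, Hspb6, Hspb7, Hspb8) and the co-chaperone Bag3 are abundant in heart muscle, where they look after the sarcomere. In the ER, unfolded proteins are sensed by Ern1 (IRE1), which activates the transcription factor Xbp1 by splicing its messenger, by Atf6, which is cut free to enter the nucleus, and by the kinase Eif2ak3 (PERK). Eif2ak3 and Eif2ak4 (GCN2, a sensor of missing amino acids) phosphorylate the initiation factor eIF2, which slows translation in general and favours Atf4, whose targets include Atf3, Ddit3 (CHOP), Trib3, Chac1, Asns and Fgf21.

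The members followed the spread of the array before anything else. The spread was taken as the standard deviation (SD) of all log2 signals of an array, and it ran from 0.863 to 1.50 over the 20 arrays, with array medians between 6.23 and 6.66. Arrays above 1.1 are called wide and the others narrow. Of 4 sham arrays 3 were wide, against 1 of 4 in the FA-sham group, 2 of 6 in the DOXO group and 2 of 6 in the FA-DOXO group, with mean spreads of 1.27, 0.957, 1.13 and 1.04 in that order. Hspa5 (BiP), the main chaperone of the ER, averaged 10.29 ± 0.59 (log2 signal, SD, n = 8) over wide arrays and 7.78 ± 0.69 (SD, n = 12) over narrow arrays. Hspb6, a small heat shock protein of muscle, averaged 11.90 ± 1.13 over wide arrays and 7.90 ± 0.68 over narrow arrays. With the groups held apart in limma, 31 of 43 members rose with the spread at an adjusted p under 0.05 and 3 fell, while 29.8% of all clusters rose. In the heat shock arm 15 of 17 members rose with it, in the ER arm 13 of 15, and in the ISR arm 3 of 11, with Atf5, Trib3 and Fgf21 falling. The median slope was 3.87 log2 units per unit of array SD in the heat shock arm, 4.31 in the ER arm and 0.10 in the ISR arm, against -0.39 over all clusters with 1 symbol. This background was not matched on signal level, and the array SD is computed from the same signals. Clusters far above the array median can rise with it on that ground alone. These counts and slopes are therefore not read as particular to the arms. The steepest member was Hspb6 with 9.85 ± 0.67 (SE). Whether tissue makeup, RNA quality or array handling goes with the spread was not tested.

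**Figure D1:**
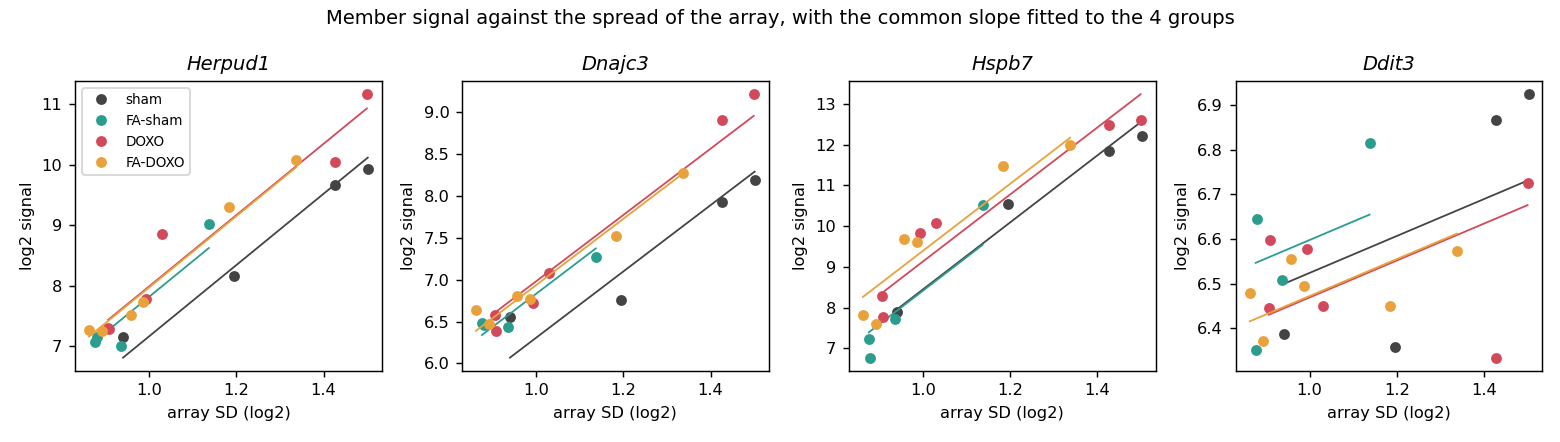
Log2 signal of Herpud1, Dnajc3, Hspb7 and Ddit3 (vertical axes) against the SD of all log2 signals of the array (horizontal axes), 1 point per mouse coloured by group, with lines of the common slope fitted within the 4 groups. Herpud1 climbs by 5.90 log2 units per unit of array SD and Ddit3 by 0.41. On the 12 narrow arrays, whose SD ran from 0.863 to 1.03, Dnajc3 ran from 6.39 to 7.09, with the highest value at the widest of them.

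Groups were therefore compared with the spread of the array as a covariate, a choice that earlier work on these arrays had made after seeing their spread, and for the members past the threshold the values without it are given as well. Differences are in log2 units, each given ± its standard error (SE), from a two-sided moderated test in limma. A member past an unadjusted p of 0.01, the threshold the study's methods use for its arrays, is counted as past the threshold. In DOXO against sham, 3 of 43 members were past it and all 3 were higher, namely Dnajc3, Herpud1 and Atf3. Over all clusters 4.14% were past it in either direction and 3.14% were higher. In DOXO averaged over both diets, which sets 12 mice given DOXO against 8 without and shares its mice with the other comparisons, 4 of 43 were past it and all were higher, namely Dnajc3, Herpud1, Xbp1 and Hspb7, against 2.83% of all clusters in either direction and 2.01% higher. No member passed an adjusted p of 0.05 over all clusters in any of the 6 comparisons, where 0.17% of clusters passed in DOXO against sham and 0.227% in DOXO averaged over both diets. Without sham replicate 4, the sole narrow array in its group, 3 members passed that adjusted p in DOXO against sham, among them Dnajc3 and Herpud1 (adjusted p = 0.0229), and 1 each in FA-sham against sham and in DOXO averaged over both diets, Dnajc3 in both. With the square of the array SD added, a fit chosen after seeing the data, 1 passed in DOXO against sham, Dnajc3 (adjusted p = 0.0289), and 2 in DOXO averaged over both diets, Hspb7 (adjusted p = 0.0188) and Dnajc3 (adjusted p = 0.0489). At an unadjusted p under 0.05 there were 11 members in DOXO against sham, 25.6% of them against 12.7% of all clusters, and 10 in DOXO averaged over both diets, 23.3% against 8.54%. The count in DOXO against sham rose to 10 without sham replicate 4 and to 5 without sham replicate 1 or DOXO replicate 1. That in DOXO averaged over both diets was 8 without sham replicate 4 and 2 without sham replicate 2 or FA-sham replicate 1. For fits that left out a mouse or added the square, the share of all clusters past either threshold is not given. Their counts are therefore not read as particular to the members.

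The arms did not shift alike. In DOXO averaged over both diets, the median difference of the ER arm was 0.32 and 14 of its 15 members were above 0, against a median of 0.01 over all clusters with 1 symbol, 56.1% of which were above 0. The heat shock arm had a median of 0.16 with 12 of 17 above 0, and the ISR arm 0.03 with 7 of 11 above 0. These medians describe the lists and were not tested, and the genes of an arm share the same mice. The group means of the 11 ISR members lay between 6.33 and 7.39, where array medians were 6.23 to 6.66. The highest group mean was 11.66 in the heat shock arm (Hspa8, sham) and 10.04 in the ER arm (Canx, sham). Signals near the array median carry little range, and the part of this in the ISR medians and slopes was not tested. Without the covariate the medians were 0.17 for the ER arm, 0.06 for the heat shock arm and 0.03 for the ISR arm, against 0.02 over all clusters with 1 symbol. There 0 of 43 members were past the threshold (0.506% of all clusters were), with 0 also at an unadjusted p under 0.05 (1.99% of all clusters were). For DOXO against sham alone the covariate turned the sign of the medians, from -0.45 to 0.16 in the heat shock arm and from -0.22 to 0.25 in the ER arm, while the ISR arm was at 0.11 without it and 0.14 with it. The median over all clusters with 1 symbol was 0.09 without it and 0.05 with it. Without it 0 of 43 members were past the threshold there, where 1.05% of clusters were. Under an unadjusted p of 0.05 were 3 members, or 6.98%, against 5.73% of all clusters. The sham group held 3 of the 8 wide arrays among its 4 mice.

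**Figure D2:**
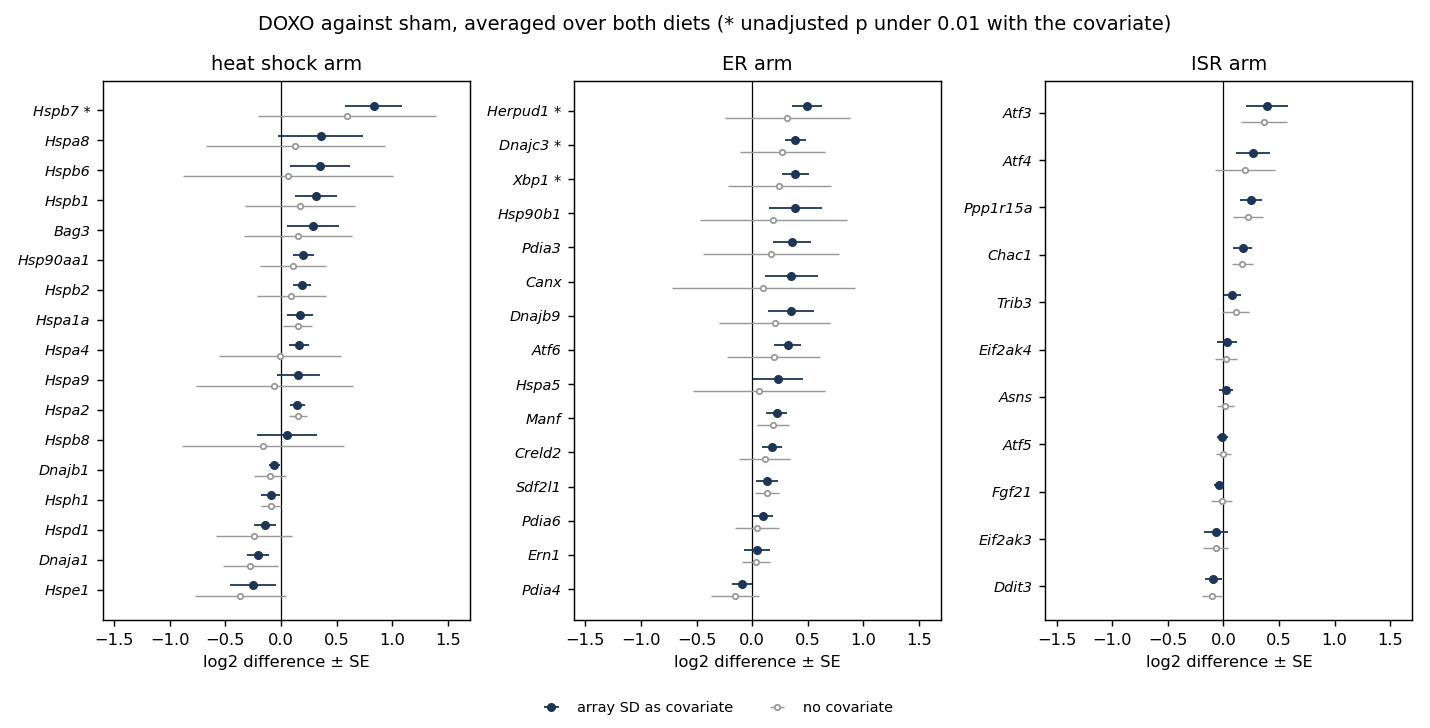
Log2 difference ± SE of each of the 43 members in DOXO averaged over both diets (horizontal axes), by arm, from limma, taking the array SD into the model (dark filled points) or leaving it out (grey open points). Stars mark the 4 members past an unadjusted p of 0.01 with the covariate. All but 1 of the ER members lie to the right of 0, and the bars shrink with the covariate for members that follow the array spread.

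In the ER arm, the genes past the threshold were an inhibitor of PERK, a gene of ER-associated degradation and a transcription factor. Dnajc3 (p58IPK) is a co-chaperone of the ER that restrains the kinase PERK. Its log2 signals were 6.76, 8.19, 7.93 and 6.55 in the 4 sham mice and 6.46, 6.43, 6.48 and 7.28 in the 4 FA-sham mice. The 6 DOXO mice ran from 6.39 over a median of 6.90 to 9.21, and the 6 FA-DOXO mice from 6.47 over 6.79 to 8.27. The groups overlapped, and the 2 DOXO mice on wide arrays, at 8.91 and 9.21, stood above every other mouse. At a given array spread Dnajc3 was higher by 0.67 ± 0.14 in DOXO than in sham (1.60-fold, adjusted p = 0.0614). In DOXO averaged over both diets it was higher by 0.39 ± 0.10 (adjusted p = 0.135), or 0.27 ± 0.38 without the covariate, which was not past the threshold. Between the raw signals of DOXO and sham mice there was no such difference (0.13, exact permutation test, p = 0.905, where 0.00952 is the smallest p that 6 against 4 allows). Among wide arrays alone the difference between DOXO and sham was 1.43 and among narrow arrays alone 0.14, the latter against a single sham mouse, and neither was past the threshold. Dnajc3 also had its value most affected by sham replicate 4, that narrow sham array, without which its difference was 0.92 with an adjusted p of 0.00127.

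Herpud1, which organises the degradation of misfolded ER proteins, was at 8.17, 9.93, 9.67 and 7.15 in the sham mice and at 7.15, 7.01, 7.07 and 9.03 in the FA-sham mice. It ran from 7.29 over 8.32 to 11.17 in the DOXO mice and from 7.25 over 7.62 to 10.08 in the FA-DOXO mice. All groups overlapped and 2 of 6 DOXO mice exceeded the highest sham mouse. At a given array spread it was higher by 0.83 ± 0.19 in DOXO than in sham (1.77-fold, adjusted p = 0.0936), and by 0.49 ± 0.13 in DOXO averaged over both diets (adjusted p = 0.193). Without the covariate these differences were 0.01 ± 0.79 and 0.32 ± 0.56, neither past the threshold. Within wide arrays the first was 1.36 and within narrow arrays, which hold 1 sham mouse, 0.65, and neither was past the threshold. Both calls of Herpud1 and both DOXO calls of Dnajc3 stood whichever of the 20 mice was left out.

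Xbp1, the transcription factor activated by Ern1, was at 8.93, 9.67, 9.34 and 7.15 in the sham mice and at 6.98, 7.31, 7.30 and 8.50 in the FA-sham mice. It ran from 7.19 over 8.37 to 10.11 in the DOXO mice and from 7.21 over 7.99 to 9.70 in the FA-DOXO mice. The wide DOXO arrays, at 10.11 and 10.10, lay above the highest sham array. Xbp1 was higher by 0.39 ± 0.12 in DOXO averaged over both diets (1.31-fold, adjusted p = 0.288) and by 0.46 ± 0.18 in DOXO against sham (adjusted p = 0.292). Without the covariate the former was 0.25 ± 0.46 and the latter -0.21 ± 0.66, below 0, and neither was past the threshold. The call was past the threshold in 13 of 20 fits that each left out 1 mouse and was lost without sham replicate 2, 3 or 4, FA-sham replicate 1 or 2, DOXO replicate 1 or FA-DOXO replicate 6, with values between 0.33 and 0.47 over all 20. The array reads total Xbp1 messenger and cannot show its splicing.

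The other ER genes had differences of the same sign that did not pass the threshold, apart from Pdia4. Atf6, the membrane-bound factor of the ER, was at 0.32 ± 0.12 (adjusted p = 0.412) in DOXO averaged over both diets, and Ern1, the sensor that splices Xbp1, at 0.04 ± 0.11. Hspa5 was at 0.24 ± 0.23 and the ER member of the Hsp90 family, Hsp90b1, at 0.39 ± 0.24. The folding enzymes of the protein disulfide isomerase family were at 0.36 ± 0.17 for Pdia3, 0.10 ± 0.09 for Pdia6 and -0.09 ± 0.09 for Pdia4. The chaperones and secreted factors Canx, Dnajb9, Manf, Creld2 and Sdf2l1 lay between 0.13 and 0.35. Their standard errors without the covariate were larger by far for members that follow the spread, for instance 0.60 for Hspa5.

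The promoters of the ER arm were read for motifs of the ER stress response. The arm lists genes of that response, so a share above that of all promoters is no independent result. RefSeq's table (GRCm38.p6) held a promoter for 38 of the 46 genes, and the 250 bases before each start site were searched on both strands. The ER stress element was taken as CCAAT and CCACG with a gap of 9 bases, the site at which Atf6 and the factor NF-Y meet. The 38 genes had 46 promoters, and a gene was counted where any of its promoters held a match. The shares over all promoters count each promoter, so the 2 units differ. The element stood before 6 of 13 ER genes with a promoter (Canx, Creld2, Dnajc3, Hsp90b1, Hspa5 and Pdia6) and in no promoter of the other arms. Over all 32851 promoters it stood in 0.113%. The 6 genes differed by 0.10 to 0.39 in DOXO averaged over both diets, and Dnajc3 was the only member of them past the threshold. The element of Dnajc3 is shown beside those of Hspa5 and Hsp90b1, the best known ER chaperones, and of Creld2, in capitals with 30 bases to each side, 5′ to 3′ on the strand of the gene. They lie at chr14:118937797-118937875 (plus strand), chr2:34771995-34772073 (plus strand), chr10:86705608-86705686 (minus strand) and chr15:88819490-88819568 (plus strand, element on the opposite strand). Their first base is 105, 65, 212 and 126 bases before the start site in that order.
Dnajc3: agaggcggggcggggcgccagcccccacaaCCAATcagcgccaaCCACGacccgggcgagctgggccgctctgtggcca
Hspa5: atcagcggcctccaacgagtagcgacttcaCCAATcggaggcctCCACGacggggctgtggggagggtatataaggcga
Hsp90b1: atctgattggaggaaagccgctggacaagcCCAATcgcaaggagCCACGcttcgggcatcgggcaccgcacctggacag
Creld2: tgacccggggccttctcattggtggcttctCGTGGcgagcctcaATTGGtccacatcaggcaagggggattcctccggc
The bases between the capitals differ while the spacing is fixed by the search. A second motif of the ER response, TGACGTGG, stood in no member's window and in 0.563% of all promoters. A match of letters is a description of the sequence and does not show that a factor binds there.

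In the heat shock arm, 1 gene passed the threshold. Hspb7, a small heat shock protein of heart and skeletal muscle, was at 10.56, 12.22, 11.85 and 7.90 in the sham mice and at 6.77, 7.73, 7.23 and 10.51 in the FA-sham mice. It ran from 7.78 over 9.95 to 12.62 in the DOXO mice and from 7.59 over 9.65 to 12.00 in the FA-DOXO mice. These groups overlapped almost wholly, and its slope on the array spread was 8.24 ± 0.64 log2 units per unit. At a given array spread Hspb7 was higher by 0.83 ± 0.26 in DOXO averaged over both diets (1.78-fold, adjusted p = 0.259). The call was lost without sham replicate 2 or FA-sham replicate 1, with values of 0.72 to 0.99 over the 20 fits that each left out 1 mouse. Among the narrow arrays alone the difference was 1.26 and among the wide ones 1.12, neither past the threshold, with 1 sham mouse among the narrow and 1 FA-sham mouse among the wide. In the same limma fit 0 of 10 cardiomyocyte markers were past the threshold, with a median difference of 0.05, and of -0.11 without the covariate. Hspb7 differed by 0.69 ± 0.37 in DOXO against sham and by 0.98 ± 0.36 in FA-DOXO against FA-sham (adjusted p = 0.967), without passing in either. Without the covariate the difference in DOXO against sham was -0.45 ± 1.13, of the opposite sign, and that in DOXO averaged over both diets was 0.59 ± 0.80.

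The inducible and constitutive chaperones of the Hsp70 family did not pass. Hspa1a, the inducible Hsp70, was at 6.32, 6.67, 6.31 and 6.58 in the sham mice and ran from 6.43 over 6.55 to 7.72 in the DOXO mice. Without DOXO replicate 5, which held the highest value, the DOXO mice lay between 6.43 and 6.59, within the sham range. Its difference was 0.34 ± 0.17 in DOXO against sham (adjusted p = 0.407). Hspa1a and Hspa1b are nearly the same in sequence, and another cluster carries both symbols and was left out, so the reading may mix the pair. Hspa2 was at 0.15 ± 0.07 (adjusted p = 0.565) in DOXO averaged over both diets, and Hspa4, Hspa8 and the mitochondrial Hspa9 lay between 0.16 and 0.36. Of the other small heat shock proteins, Hspb2 was at 0.19 ± 0.08 (adjusted p = 0.503), and Hspb1, Hspb6 and Hspb8 at 0.32, 0.35 and 0.05. Hsp90aa1, the stress-inducible cytosolic Hsp90, was at 0.20 ± 0.10 (adjusted p = 0.585).

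The 5 heat shock members below 0 were a pair of mitochondrial chaperonins and 3 helpers of Hsp70. Hspd1 (Hsp60) and its partner Hspe1 (Hsp10) were at -0.14 ± 0.10 and -0.25 ± 0.20 in DOXO averaged over both diets. Dnaja1 and Dnajb1, which hand substrates to Hsp70, were at -0.20 ± 0.10 (adjusted p = 0.594) and -0.06 ± 0.05, and Hsph1, an exchange factor, at -0.09 ± 0.08. These 5 did not pass the threshold. Where a gene had several clusters, as 7 members did, they gave differences of 1 sign in 6 of them and of both signs for Pdia4.

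The heat shock element, taken as GAANNTTC or TTCNNGAA, stood before 8 of 14 heat shock genes with a promoter. It stood before 0 of 13 ER genes and 3 of 11 ISR genes, and in 12.8% of all promoters. The 8 were Dnaja1, Hspa1a, Hspa1b, Hspb1, Hspb6, Hspd1, Hspe1 and Hsph1, among which genes lay on both sides of 0, while Hspb7 had no match. Hspa1a is shown because the stretch is the same, base for base, before Hspa1b, and Hspe1 because it shares its window with Hspd1 on the facing strand. They lie at chr17:34972223-34972290 (minus strand) and chr1:55088034-55088101 (plus strand), with the first capital 104 and 84 bases before the start. The capitals mark 1 match each, and that of Hspe1 overlaps a match on either side of it.
Hspa1a: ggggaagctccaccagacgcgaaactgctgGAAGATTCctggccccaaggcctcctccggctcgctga
Hspe1: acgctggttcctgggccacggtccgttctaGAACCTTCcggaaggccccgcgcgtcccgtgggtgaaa

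In the ISR arm, Atf3 passed in DOXO against sham, and 1 mouse set the size of its difference. Atf3, an early stress-induced transcription factor, was at 6.77, 6.49, 6.66 and 6.96 in the sham mice and at 6.92, 6.80, 6.93 and 7.10 in the FA-sham mice. It ran from 6.90 over 7.08 to 9.04 in the DOXO mice and from 6.89 over 7.01 to 7.07 in the FA-DOXO mice. The value of 9.04 belonged to DOXO replicate 5, and the other 5 DOXO mice lay between 6.90 and 7.22. Of the 6 DOXO mice 5 were above the highest sham mouse, and the raw signals differed by 0.67 (exact permutation test, p = 0.019). At a given array spread Atf3 was higher by 0.79 ± 0.27 (1.73-fold, adjusted p = 0.235), and by 0.31 without DOXO replicate 5. The call stood in 7 of 20 fits that each left out 1 mouse. It was lost without any 1 of 13 mice, namely sham replicates 1 to 3, FA-sham replicates 1 to 4, DOXO replicates 2 and 3 and FA-DOXO replicates 1, 2, 4 and 6, though not without DOXO replicate 5. Values over the 20 fits ran from 0.31 to 1.06. Among narrow arrays, with 1 sham mouse, the difference was 0.05 and among wide arrays 1.49.

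The kinases and other ISR genes did not pass. In DOXO averaged over both diets, Eif2ak3 was at -0.07 ± 0.11, Eif2ak4 at 0.03 ± 0.09 and Atf4 at 0.26 ± 0.15. Among Atf4 targets, Ddit3, a factor linked to cell death, was at -0.09 ± 0.07, and Asns, which makes asparagine, at 0.02 ± 0.06. Chac1, which breaks down glutathione, was at 0.17 ± 0.09 in the same comparison and at 0.34 ± 0.13 in DOXO against sham (adjusted p = 0.274), with the 6 DOXO mice between 7.00 and 7.54 and the sham mice between 6.47 and 7.20. Ppp1r15a (GADD34), which ends the response by dephosphorylating eIF2, was at 0.25 ± 0.10 (adjusted p = 0.486). Atf5 and the kinase-like Trib3 were at -0.01 ± 0.05 and 0.08 ± 0.08.

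A motif bound by Atf4 with its partners, TGATGNAA, called CARE, stood before 4 of 11 ISR genes (Asns, Atf3, Chac1 and Fgf21). Of the 13 ER genes with a promoter it stood before Herpud1, and it stood before 0 of 14 heat shock genes. Over all promoters 3.45% held it. In Asns it overlaps a heat shock element match. In the other 4 it lay on the strand opposite to the gene and read TTGCATCA. Atf3 and Herpud1 are shown because they were past the threshold in DOXO against sham, and Fgf21 because it was in FA-DOXO against DOXO. They lie at chr1:191183406-191183473 (minus strand), chr8:94386287-94386354 (plus strand) and chr7:45615592-45615659 (minus strand), with the first capital 110, 112 and 139 bases before the start.
Atf3: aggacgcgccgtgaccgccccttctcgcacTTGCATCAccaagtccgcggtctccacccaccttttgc
Herpud1: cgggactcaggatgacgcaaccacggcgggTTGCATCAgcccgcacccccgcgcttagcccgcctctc
Fgf21: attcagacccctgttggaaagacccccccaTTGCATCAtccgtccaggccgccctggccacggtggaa

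**Figure D3:**
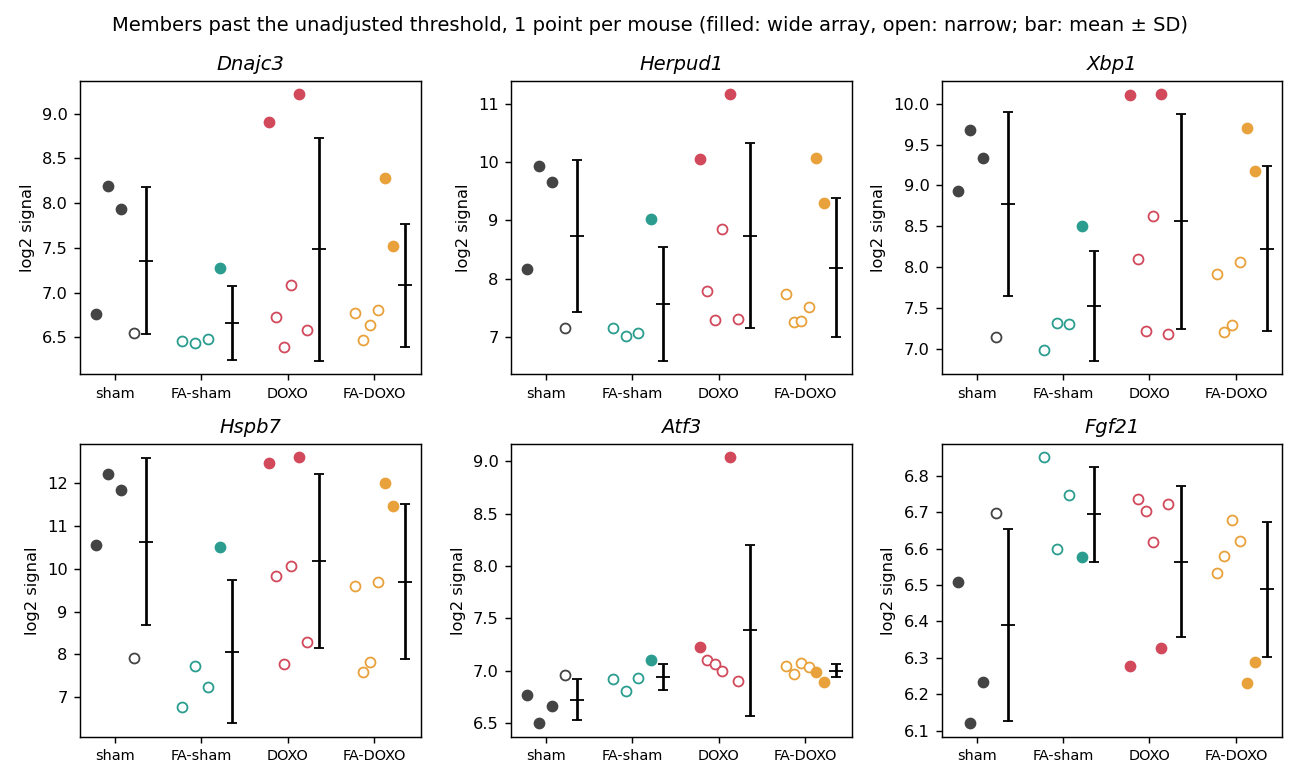
Log2 signal of Dnajc3, Herpud1, Xbp1, Hspb7, Atf3 and Fgf21 (vertical axes) in each mouse by group (horizontal axes), filled where the array was wide and open where it was narrow, and black bars for each group's mean ± SD. Within each group the filled points lie above the open ones in the first 4 panels and below them for Fgf21, and the single Atf3 value at 9.04 is DOXO replicate 5.

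Few members passed the threshold in the comparisons of FA. In FA-DOXO against DOXO, 1 of 43 members was past the threshold, the hormone gene Fgf21, which was lower, where 1.11% of clusters were past it in either direction and 0.273% were lower. Fgf21 ran from 6.28 over 6.66 to 6.74 in the DOXO mice and from 6.23 over 6.56 to 6.68 in the FA-DOXO mice, and was at 6.51, 6.12, 6.23 and 6.70 in the sham mice. The DOXO and FA-DOXO ranges overlapped almost wholly. At a given array spread Fgf21 fell by 0.16 ± 0.05 on the log2 scale (adjusted p = 0.839), and the raw signals differed by -0.08 (exact permutation test, p = 0.517). The signal of Fgf21 lay near the array medians in all groups and fell with the array spread (slope -0.88 ± 0.10). The call was lost without DOXO replicate 2 or 5 or FA-DOXO replicate 1, 2, 5 or 6, and 3 members passed without DOXO replicate 4. The genes past the threshold in DOXO differed between FA-DOXO and DOXO by -0.05 ± 0.12 for Dnajc3, -0.02 ± 0.17 for Herpud1, 0.10 ± 0.16 for Xbp1, 0.26 ± 0.33 for Hspb7 and -0.31 ± 0.24 for Atf3, none past the threshold. At an adjusted p under 0.05, 0% of all clusters passed in this comparison. Without the covariate 0 members were past the unadjusted threshold and 0.158% of clusters were.

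In FA-sham against sham, 1 of 43 members was past the threshold, where 1.83% of clusters were in either direction and 1.65% were higher. It was Dnajc3, higher in FA-sham by 0.52 ± 0.17 (adjusted p = 0.516). The raw means lay the other way, at 6.66 ± 0.41 in FA-sham and 7.36 ± 0.82 in sham (SD, n = 4 each), a difference of -0.70 (exact permutation test, p = 0.171). The direction of this result thus turned with the covariate. The call was lost without sham replicate 1, 2 or 3, FA-sham replicate 1 or 3 or DOXO replicate 5, and 6 members passed without sham replicate 4. Herpud1 was at 0.65 ± 0.23 (adjusted p = 0.549) in the same comparison. No cluster passed an adjusted p of 0.05 (0%). Without the covariate 4.35% of clusters were past the threshold and 0 members were, although the medians of the arms were -1.04 for heat shock, -1.06 for the ER and 0.12 for the ISR, against 0.18, 0.23 and 0.13 with the covariate. The median over all clusters with 1 symbol was 0.17 without it and 0.08 with it. This comparison set 3 wide and 1 narrow arrays against 1 wide and 3 narrow ones.

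With FA in both groups, FA-DOXO against FA-sham had 0 of 43 members past the threshold in limma and 2 under an unadjusted p of 0.05, Hspb7 and Fgf21. These 2 were 4.65% of members, against 4.92% of all clusters. Over all clusters 1.07% were past the threshold and 0.0259% past the adjusted one. The median of the ER arm was 0.22, with 14 of 15 members above 0, that of the heat shock arm 0.09 and that of the ISR arm -0.03. Over all clusters with 1 symbol the median was -0.02 and 39.8% were above 0. Without the covariate 0 members and 0.268% of clusters were past the threshold.

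The interaction asked whether the DOXO difference changed with FA, as the difference in FA-fed mice minus that in mice on placebo. In limma 0 of 43 members were past the threshold, where 1.78% of clusters were. Under an unadjusted p of 0.05 were 3 members, or 6.98%, all below 0. Over all clusters 8.63% were under it, and 39.5% of all clusters were above 0. The 3 members were Dnajc3 at -0.57 ± 0.20 (adjusted p = 0.537), Herpud1 at -0.67 ± 0.28 (adjusted p = 0.554) and Fgf21 at -0.19 ± 0.08 (adjusted p = 0.561). Atf3 was at -0.80 ± 0.39 (adjusted p = 0.584). Hence the DOXO differences of Dnajc3, Herpud1 and Atf3 were not shown to differ between the diets at the threshold used. At an adjusted p under 0.05, 0% of clusters passed, and without the covariate 0.463% were past the unadjusted threshold and 0 members were.

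DOXO replicate 5 stood apart within the DOXO group. Its array had the second widest spread, 1.50, and it held the highest value of all 20 mice in 17 of 43 members, 7 in the heat shock arm, 5 in the ER arm and 5 in the ISR arm. It was also highest in 17.9% of clusters with 1 symbol. Sham replicate 2, the array with the widest spread, was highest in 13 of 43 members and in 15.5% of those clusters. The members in which DOXO replicate 5 exceeded the next mouse by most were Atf3 by 1.82, Bag3 by 1.62, Atf4 by 1.34, Hspb1 by 1.12, Herpud1 by 1.09 and Hspa1a by 1.05. Bag3, which clears damaged sarcomere proteins with Hspb8, was at 10.97 there and between 6.96 and 8.17 in the other DOXO mice. Hspb1 (Hsp27) was at 11.52 there and at most 9.33 in the other DOXO mice. Members of each of the 3 arms were thus among those highest in this animal, and the cause was not tested. Without it, Dnajc3 and Herpud1 differed by 0.58 and 0.74 in DOXO against sham, still past the threshold.

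**Figure D4:**
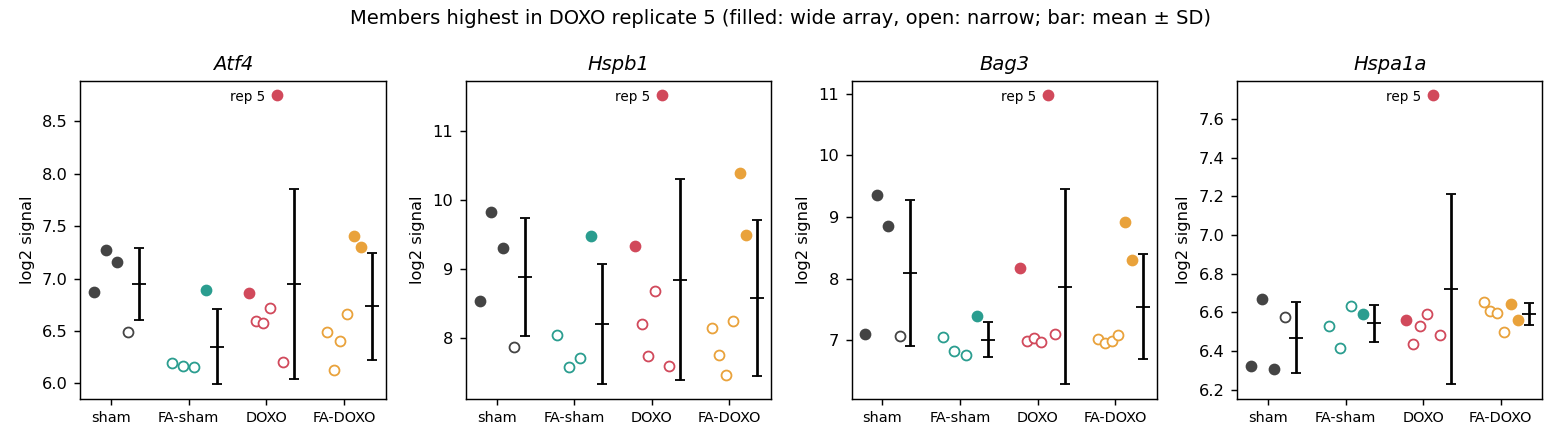
Log2 signal of Atf4, Hspb1, Bag3 and Hspa1a (vertical axes) in each mouse by group (horizontal axes), filled where the array was wide and open where it was narrow, and black bars for each group's mean ± SD. In each panel the DOXO mouse marked rep 5 lies above all other mice, by 1.05 to 1.62 log2 units.

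Other genes of these pathways, in lists of their own, were read in the same fit. Of 42 further ISR genes, 11 were higher and 0 lower in DOXO against sham, where 3.14% of all clusters were higher, and 7 were higher and 0 lower in DOXO averaged over both diets, where 2.01% were. Without the covariate these counts were 1 higher in DOXO against sham and 0 in DOXO averaged over both diets, with 1.05% and 0.506% of all clusters past the threshold in either direction. With it, 1 was higher and 0 lower in FA-DOXO against FA-sham, where 1.07% of clusters were past it. The median there was -0.01, with 15 of 42 above 0, against -0.02 and 39.8% over all clusters with 1 symbol. In FA-sham against sham 1 was higher and 0 lower, where 1.83% of clusters were past it. That median was 0.22, with 37 of 42 above 0, and the median in DOXO against sham was 0.17, with 32 above 0. Over all clusters with 1 symbol, 73.8% were above 0 in FA-sham against sham (median 0.08) and 63.6% in DOXO against sham (median 0.05). Sqstm1, the autophagy receptor p62, was at 8.96, 10.52, 10.39 and 7.20 in the sham mice and at 7.03, 7.17, 6.81 and 9.48 in the FA-sham mice. It ran from 7.32 over 8.86 to 12.46 in the DOXO mice and from 7.16 over 8.88 to 11.55 in the FA-DOXO mice. The groups overlapped, and at a given array spread it was higher by 0.98 ± 0.17 in DOXO averaged over both diets (adjusted p = 0.0273) and by 1.24 ± 0.25 in DOXO against sham (adjusted p = 0.0552). Without the covariate these differences were 0.75 and 0.15. Nars, the asparaginyl-tRNA synthetase, was higher by 0.38 ± 0.08 (adjusted p = 0.046) in the former and by 0.65 ± 0.11 (adjusted p = 0.0263) in the latter. Without the covariate Nars was at 0.23 and -0.05 in that order, so its sign in DOXO against sham turned. Sars, the seryl-tRNA synthetase, and Slc3a2, a subunit of amino acid transporters, were higher by 0.28 ± 0.06 and 0.58 ± 0.14 in the former without passing the adjusted threshold. Without the covariate they were at 0.18 and 0.43 there, and at -0.14 and 0.27 in DOXO against sham.

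Of 36 further ER genes, 1 was higher in both comparisons, P4hb, a protein disulfide isomerase, by 0.46 ± 0.11 in DOXO averaged over both diets (adjusted p = 0.113). Without the covariate P4hb was at 0.29 there and at -0.05 in DOXO against sham. Of 45 further heat shock genes, 1 was higher and 2 were lower in DOXO against sham, and 0 were higher and 1 lower in DOXO averaged over both diets. Over all clusters 4.14% and 2.83% were past the threshold in these comparisons in either direction. The latter was Fkbp4, a co-chaperone of Hsp90, which fell by 0.42 ± 0.13 (adjusted p = 0.298), and by 0.51 without the covariate. Without it, 0 ER genes were past the threshold in either comparison, and 1 heat shock gene was higher and 1 lower in DOXO against sham and 0 in DOXO averaged over both diets. In that fit 1.05% and 0.506% of all clusters were past the threshold in these comparisons, in either direction.

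Markers of other cells were read beside these results. The mean signal of 10 cardiomyocyte markers lay between 8.15 and 13.1 in each mouse, above the array medians. In DOXO against sham, 5 of 10 neutrophil markers were past the threshold and higher, as were 2 of 10 macrophage markers, 1 of 9 T and NK cell markers and 0 of the cardiomyocyte, endothelial and fibroblast markers, where 3.14% of all clusters were higher. Without the covariate 5 neutrophil markers were past the threshold and higher and 0 of the macrophage or T and NK cell markers were. Of all clusters 1.05% were past it there, in either direction. The mean signal of the neutrophil markers was between 5.57 and 6.37 in the sham mice and between 6.38 and 6.73 in the DOXO mice. It was between 6.17 and 6.45 in the FA-sham mice and between 6.27 and 6.62 in the FA-DOXO mice. The array medians lay between 6.23 and 6.66. In FA-sham against sham, 1 of these 10 neutrophil markers was higher, where 1.65% of all clusters were. Their median difference was 0.29 with 10 of 10 above 0, against 0.08 and 73.8% over all clusters with 1 symbol. In FA-DOXO against FA-sham 0 of these markers were past the threshold, where 1.07% of clusters were, with a median of 0.04. The part of these cells in the differences of the stress genes was not tested.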

How the data were processed

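The authors isolated RNA from left ventricle with a fibrous tissue kit, hybridised it to Affymetrix Mouse Gene 1.0 ST arrays and, per the labels, processed the scans in R 2.14.2. The values deposited are log2 signals per transcript cluster. For background correction, normalization and probe summary no method is named in the sources used here. The arrays differ in spread, so spread can enter any comparison. The labels number the samples within groups, each is read as 1 mouse, and p-values measure the spread between these samples. Gene symbols came from the platform annotation, in which 1321 clusters carry several symbols and 11799 are not listed.

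Group means and the centred array SD were fitted to all 34760 clusters over 20 arrays with limma 3.58.1 (R 4.3.3), without a filter. Adjusted p-values are Benjamini-Hochberg over all clusters. DOXO was set against sham, FA-DOXO against both DOXO and FA-sham, and FA-sham against sham, beside the interaction and DOXO averaged over both diets, all sharing mice. Exact permutation tests used SciPy 1.17.1. The scripts were tested on simulated data. The members and lists, and the covariate, were chosen with earlier results of these data known. The members named are those past an unadjusted p of 0.01, the 4 with the smallest p per arm, and the factors and kinases that head the arms. DOXO replicate 5 and the members it leads (Bag3, Hspb1) were described after their values were seen, and members named by group fill out each arm. Up to 4 further genes per related list are named, by smallest p in DOXO averaged over both diets. The alternatives were no covariate, the interquartile range or wide and narrow as a block in its place, wide or narrow arrays alone, quantile normalization, median centring, a filter at the 20th percentile of signal, a trended robust fit, array weights, the replicate number as a block, the mean of a gene's clusters, only the compared groups, and each mouse left out. The array SD with its square was added after seeing the data. Promoter sequences are RefSeq's, and protein sequences were not used here.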

Additional observations from a re-analysis of the deposited data

Results flagged for a closer look

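Among the named members, 76 sets of 4 or 6 mice were checked for a mouse far from the others of its group, and 14 sets held one. The nominal rate of about 1 in 20 sets holds for arrays of like spread, which these are not. The share of sets flagged over all clusters is not given, so the count is not read as particular to the members. The 14 outlying values came from 5 mice, so they are not separate animals. In the DOXO group, replicate 5 (wide array) stood apart at a log2 signal of 7.72 for Hspa1a (others 6.43 to 6.59), 7.48 for Ern1 (others 6.41 to 6.79), 7.28 for Eif2ak4 (others 6.49 to 6.78), 9.04 for Atf3 (others 6.90 to 7.22) and 8.75 for Atf4 (others 6.21 to 6.86). DOXO replicate 1, also wide, was low for Eif2ak3 at 5.92 (others 6.40 to 6.63). In the FA-sham group, replicate 4, its only wide array, stood apart at 9.39 for Hspa5 (others 7.22 to 7.43), 7.58 for Atf6 (others 6.73 to 6.82), 7.28 for Dnajc3 (others 6.43 to 6.48), 9.03 for Herpud1 (others 7.01 to 7.15), 6.89 for Atf4 (others 6.15 to 6.20) and, on the low side, 6.39 for Eif2ak3 (others 6.46 to 6.47). FA-sham replicate 1 was low for Ppp1r15a at 6.76 (others 6.98 to 7.01). Sham replicate 4, the only narrow sham array, was high for Hspa2 at 7.01 (others 6.47 to 6.53). No member's DOXO difference differed between the diets past the threshold.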

How the results depend on the processing

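The number of members past the threshold depended mainly on how the array spread was treated. Counts are given for DOXO against sham, then DOXO averaged over both diets, then FA-DOXO against DOXO and next against FA-sham, then FA-sham against sham, and last the interaction, and were 3, 4, 1, 0, 1 and 0. They were 0 in all 6 without the covariate and with the narrow arrays alone, 2, 2, 0, 0, 0 and 0 with the wide arrays alone, 0, 4, 0, 0, 0 and 0 with the kind of array (wide or narrow) as a block, 1 and then 0 in the other 5 after quantile normalization, 4, 2, 0, 0, 0 and 0 with the interquartile range, and 6, 5, 1, 1, 2 and 1 with the array SD and its square. Median centring left 0 in FA-sham against sham, and fits of only the compared groups gave 2, 0, 0 and 0 in the 4 pairs of groups, as they could not be made for the other comparisons. The filter, the trended robust fit, array weights and the mean of a gene's clusters kept every count within 1.5 times. Apart from the fit without the covariate, the shares of all clusters past the threshold in these alternatives are not given. The counts are therefore not read as particular to the members.

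With a replicate block (the replicate number) the counts were 3, 5, 0, 1, 2 and 0. Over 26 pairs of mice with the same number, the correlation of their deviations ran from -0.86 to 0.84 and 12 were over 0.1. The lowest was between a narrow and a wide array (sham and FA-sham replicate 4). The highest was between wide arrays (DOXO and FA-DOXO replicate 5), though sham replicate 1 (wide) and FA-DOXO replicate 1 (narrow) were at 0.51. Array spread can enter these correlations, so they do not settle whether the numbers pair the mice. Over the 20 fits that each left out 1 mouse, the counts ranged from 2 to 10, 2 to 8, 0 to 3, 0 to 1, 0 to 6 and 0 to 3, the highest of the first 2 and last 2 without sham replicate 4. The other highs came without DOXO replicate 4 in FA-DOXO against DOXO and without FA-sham replicate 2 or 4 or FA-DOXO replicate 2 in FA-DOXO against FA-sham.

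Among differences that changed sign, Dnajc3 in FA-sham against sham went to -0.70 without the covariate, -0.35 in wide arrays (1 FA-sham mouse), -0.095 in narrow arrays (1 sham mouse) and -0.54 after quantile normalization. In DOXO averaged over both diets, narrow arrays alone, with 1 sham mouse, gave -0.0022 for Hspa1a, -0.0025 for Hsp90aa1, -0.0048 for Ern1, 0.0078 for Eif2ak3, -0.028 for Eif2ak4, 0.052 for Ddit3, -0.090 for Chac1 and -0.0023 for Ppp1r15a. Ern1 and Eif2ak4 gave -0.072 and -0.089 with array weights and -0.029 and -0.028 with the block, and ranged from -0.039 to 0.11 and -0.039 to 0.074 over the fits that left out 1 mouse, below 0 without sham replicate 1 or DOXO replicate 5. These members were not past the threshold apart from Dnajc3. The causes were not tested. The number of arrays, and the position of sham replicate 4 as the only narrow sham array, limit the precision. Signals near the array median, as for Fgf21 and much of the ISR arm, carry little range.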
